A study of Homo sapiens with 6 samples.

Results

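Extracellular nucleotides are signals that epidermal keratinocytes release and sense. ATP, ADP, UTP and UDP act on P2Y receptors, which couple to G proteins, and ATP also opens P2X receptors, which are cation channels. Enzymes on the cell surface then strip the phosphates, and NT5E (CD73) carries out the last step by turning AMP into adenosine, which acts on adenosine receptors such as ADORA2B. In keratinocytes this system is known for its part in calcium signalling, proliferation, differentiation and the response to wounding.

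The 8 genes described here are the P2Y receptor genes P2RY6, P2RY2, P2RY1 and P2RY11, the P2X receptor genes P2RX4 and P2RX5, the adenosine receptor gene ADORA2B and the ectonucleotidase gene NT5E. They were chosen by name, with values of this comparison known, out of 27988 genes named in the files. Of the 8 genes, 7 had a reference transcript in at least 1 library and 5 reached the minimum level for the test, which 15647 genes reached in all. The levels of the 8 genes are therefore given as a description, and nothing is supported with them.

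RNA was sequenced from HaCaT cells, a spontaneously immortalised human keratinocyte line, in 2 groups of 3 libraries. The cells were transfected by Lipofectamine 2000, either with 100 pmol of an siRNA against PSENEN, which encodes a subunit of the γ-secretase protease, or with a mismatch siRNA as the negative control. Cells given the transfection reagent alone are described in the labels and not analysed here. The labels name 48 and 72 h as times of RNA extraction without stating which of these was sequenced, and they do not say whether libraries of a group came from separate cultures, so p-values measure only the spread between these libraries.

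Levels are in TPM, a share of the library's transcripts that is scaled by transcript length, and so can be compared between genes. A gene's level is the sum over its annotated (reference) transcripts. Because the assembly put part of some genes' reads into transcripts with no reference name, a further measure was added after the data were seen. This coding coverage is the mean coverage of a gene's coding bases by all listed transcripts of its strand or of no strand, on the TPM scale. Read counts were not used here, and the estimated sequence per library was 9.16 to 11.9 gigabases in PSENEN siRNA libraries and 11.5 to 15.6 gigabases in mismatch siRNA libraries. PSENEN itself was at 1.75, 2.08 and 1.496 TPM with the PSENEN siRNA and at 6.58, 8.85 and 6.55 TPM with the mismatch siRNA. All 8 keratinocyte markers were present, with a summed level of 3262 to 4060 TPM in PSENEN siRNA libraries and 3427 to 7705 TPM in mismatch siRNA libraries. On coding coverage 3 of these 8 markers, KRT14, KRT17 and TP63, were lower with the PSENEN siRNA by the limma test (none of the 8 on reference transcripts), where 3.06% of all genes were. All 8 differences were negative on that measure, and 7 of the 8 markers were lower without overlap, where 21.1% of all tested genes were. On reference transcripts 7 of the 8 differences were negative, and 5 markers were lower without overlap, where 13.7% of all tested genes were. KRT14 was positive there, with a log2 difference of 0.97 ± 1.10 (SE). The part of these marker differences in the results below was not tested. Summed markers of melanocytes, fibroblasts, leukocytes and endothelial cells each stayed at or below 1.67 TPM on reference transcripts in every library, with PTPRC, CD3E, PECAM1, KDR, PDGFRA, COL1A2, MLANA, DCT and TYR listed at 0. On coding coverage MLANA was at 0.981, 1.04 and 1.07 in PSENEN siRNA libraries and 0.793, 1.07 and 1.04 in mismatch siRNA libraries, and summed melanocyte markers reached 1.91 with the PSENEN siRNA and 2.55 with the mismatch siRNA. In bulk RNA, fewer cells that express a gene and less RNA per cell cannot be told apart.

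P2RY6, the receptor for UDP, was the member that differed most between the groups. Its reference transcripts summed to 0.534, 0.447 and 0.304 TPM in PSENEN siRNA libraries 1 to 3, against 3.74, 6.80 and 7.27 TPM in mismatch siRNA libraries 1 to 3. Every PSENEN siRNA library lay below every mismatch siRNA library, and the lowest mismatch siRNA value was the first replicate's. The mean was 0.428 ± 0.116 TPM with the PSENEN siRNA and 5.94 ± 1.91 TPM with the mismatch siRNA (SD, n = 3 each), so that the first was 7.22% of the other. The difference on the log2(TPM + 1) scale was -2.24 ± 0.26 (SE), a scale that understates the change of genes at low levels.

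The coding bases of P2RY6 were covered at 1.09, 1.16 and 1.19 in PSENEN siRNA libraries, against 8.42, 11.1 and 11.3 in mismatch siRNA libraries. On this measure the PSENEN siRNA libraries lay close together, the groups again did not overlap, and the mean with the PSENEN siRNA was 11.1% of that with the mismatch siRNA. The log2 difference was -2.39 ± 0.15 (SE). The coding values with the PSENEN siRNA were low, with introns of the gene at a mean of 0.575, 0.555 and 0.261 in those libraries. In mismatch siRNA libraries the introns were at 1.38, 1.61 and 1.65e-06. With assembled transcripts that share an intron with P2RY6 added, the values were 1.13, 1.15 and 1.17 TPM with the PSENEN siRNA and 5.56, 7.35 and 9.09 TPM with the mismatch siRNA.

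P2RY6 passed the minimum of 1 TPM in 3 libraries only through the mismatch siRNA group, so a gene with these levels had to differ in order to be tested at all. In the limma fit over all genes it was the 1 member of 5 tested that was called at an adjusted p under 0.05 (adjusted p = 0.0471), where 0.409% of all genes were called, 0.281% as lower and 0.128% as higher, and since the member was picked for this difference nothing is read from the call. On coding coverage its adjusted p in the limma fit was 0.00520, with 3.76% of genes called, 3.06% as lower and 0.702% as higher. The call on reference transcripts was lost when any 1 PSENEN siRNA library was left out, and without any 1 mismatch siRNA library P2RY6 no longer reached the minimum. On coding coverage the call stayed without each library in turn.

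**Figure D1:**
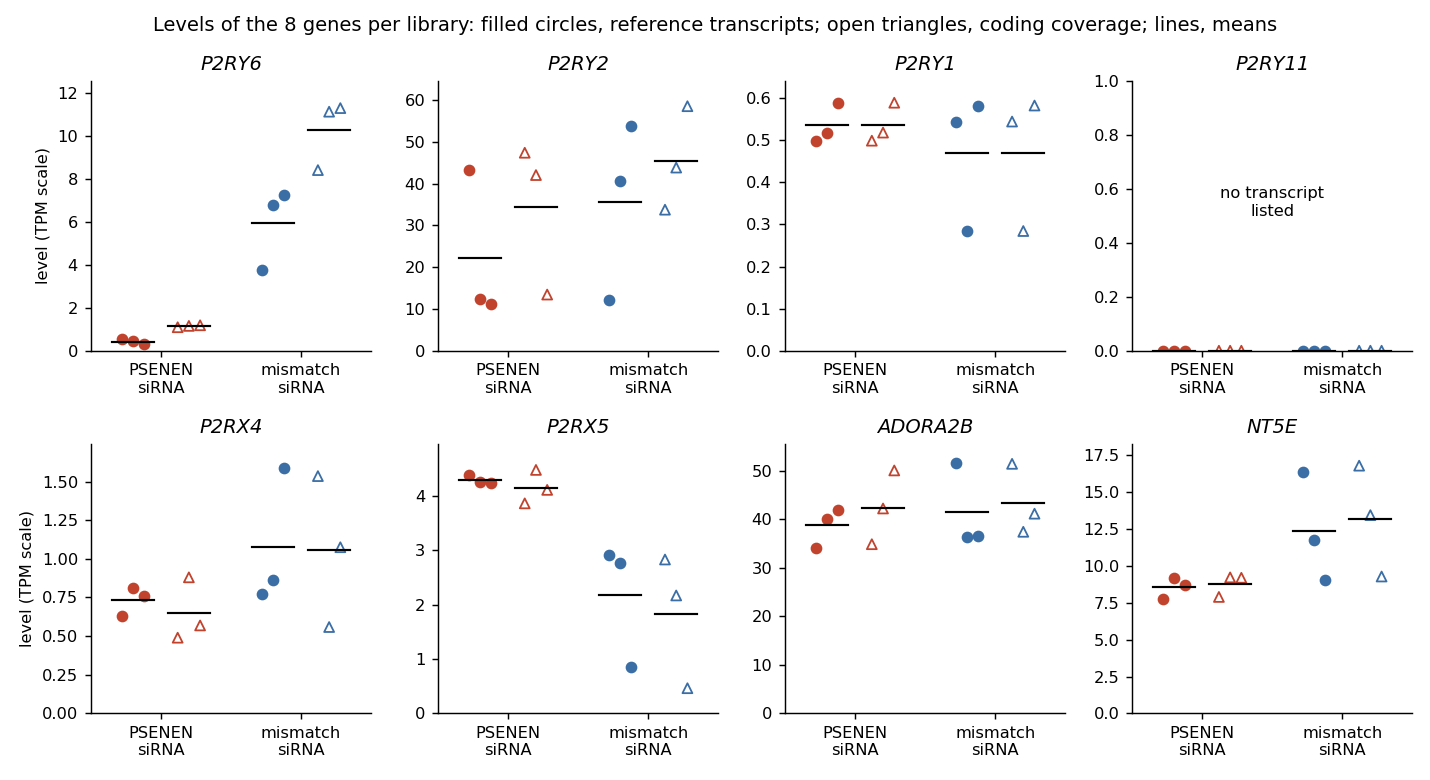
Level of each of the 8 genes in every library, on the TPM scale, with PSENEN siRNA libraries at the left of each panel and mismatch siRNA libraries at the right. Filled circles are reference transcripts, open triangles are coding coverage, and lines are means of 3 libraries. P2RY6 lies at or below 1.19 in all PSENEN siRNA libraries and at or above 3.74 in all mismatch siRNA libraries, P2RX5 is separated the other way, and P2RY11 has no transcript.

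P2RY6 (ENSG00000171631) lies at chr11:73264505-73298617 on the plus strand of GRCh38, and 12 transcripts are annotated there, of which 5 were listed in the files. The listed transcripts start at several sites, and ENST00000535931, which ends at position 73297254, stops short of the ends of the others. ENST00000393592, which has 3 exons and starts at the upstream end of the gene, had 4.23 and 6.45 TPM in mismatch siRNA libraries 2 and 3 and was listed in no other library. ENST00000540124, which starts at position 73271522, had 0.534 and 0.0748 TPM in PSENEN siRNA libraries 1 and 2, against 2.58, 2.03 and 0.000312 TPM in mismatch siRNA libraries 1 to 3. The leading transcript thus changed between libraries of the same group, while the total of the mismatch siRNA libraries stayed above that of every PSENEN siRNA library. ENST00000535931 was listed at 0.127, 0.122 and 0.158 TPM in mismatch siRNA libraries and in no PSENEN siRNA library. The split of reads between transcripts of 1 gene is an estimate of the assembler, and no test was made of it.

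ENST00000393590 is the listed transcript with the longest 3′ end, 813 bases past the end of ENST00000540124. It had 0.372 and 0.304 TPM in PSENEN siRNA libraries 2 and 3 and was not listed in the first, against 0.976, 0.419 and 0.654 TPM in mismatch siRNA libraries. Coverage of those 813 bases was 0, 0.418 and 1.19 in PSENEN siRNA libraries and 1.51, 1.09 and 5.24 in mismatch siRNA libraries, on the TPM scale. Here the groups overlapped, unlike over the coding bases. Each listed exon carries a single coverage value, spread evenly over it, so regions within an exon are not separate measurements. A value of 0 here means that no listed transcript reached these bases. The 302 bases of 3′ UTR before that extension were covered at 1.09, 1.16 and 1.19 in PSENEN siRNA libraries and at 5.88, 10.4 and 11.2 in mismatch siRNA libraries, without overlap.

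The long 3′ end is shown because it holds the 7-base word TGGTTCT, which was picked in earlier work on these data as frequent in the 3′ UTRs of genes that were lower with the PSENEN siRNA, so its presence here is not independent of the levels. Of the 8 genes, P2RY6 alone holds this word in an annotated 3′ UTR, in 2 of its 12 coding transcripts (ENST00000393590 and ENST00000618468). The same word occurs in the coding sequence of all 3 PSENEN transcripts. Both windows are read 5′ to 3′ on the plus strand of GRCh38, with the word in capitals, at chr11:73297983-73298012 for P2RY6 and chr19:35746452-35746481 for PSENEN.
P2RY6, 3′ UTR of ENST00000393590: caggcctgtgtTGGTTCTggggccctagaa
PSENEN, coding sequence: tcaacatcttcTGGTTCTtccgagaggcct
The 30-base windows are identical at 11 positions, and the unbroken match around the word is 7 bases. The longest run shared by any coding transcripts of both genes is 13 bases. In the RNA sequence, the word was in the 3′ UTR of 17.3% of 19844 protein-coding genes with an annotated 3′ UTR. The share was 20.1% among the 11475 of these tested on coding coverage. The match is a description of letters. The sequence of the siRNA was not used here, and whether it pairs with P2RY6 RNA was not tested. The word lies within the 813-base extension past the end of ENST00000540124, for which coverage is given above.

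**Figure D2:**
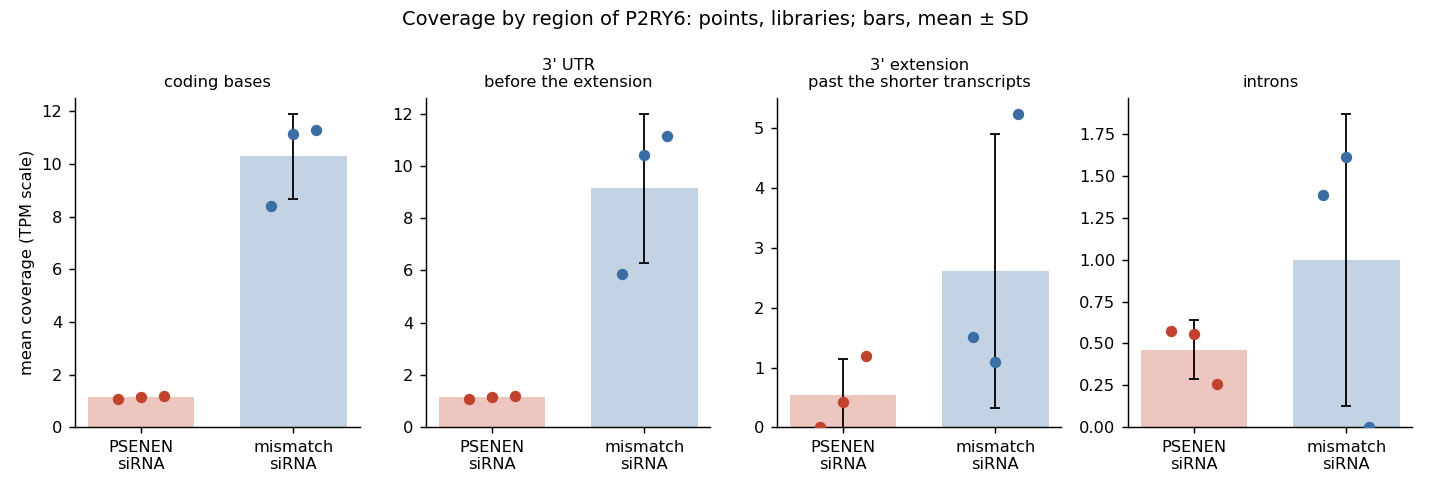
Mean coverage on the TPM scale of 4 regions of P2RY6, with PSENEN siRNA at the left and mismatch siRNA at the right of each panel; points are libraries and bars are means ± SD of 3 libraries. The groups are apart over the coding bases and the nearer 3′ UTR, and they overlap over the 813-base 3′ extension and over the introns. Coverage is spread evenly over each listed exon, so regions that share an exon are not separate measurements.

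Introns of P2RY6 were covered at a mean of 0.575, 0.555 and 0.261 in PSENEN siRNA libraries and at 1.38, 1.61 and 1.65e-06 in mismatch siRNA libraries. Listed transcripts covered 64.6%, 59.7% and 23.2% of the intron bases in PSENEN siRNA libraries and 80.3%, 75.6% and 14.5% in mismatch siRNA libraries. The groups overlapped on both. In the third mismatch siRNA library listed transcripts gave almost no intron coverage, while its coding coverage was the highest of all libraries. These values reflect which transcripts the assembly listed, and the level of unspliced RNA was not tested.

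P2RY2, the receptor for ATP and UTP, is the upstream neighbour of P2RY6 on the same strand, at chr11:73218298-73236352 (ENSG00000175591). Its reference transcripts summed to 43.3, 12.5 and 11.1 TPM in PSENEN siRNA libraries and to 12.1, 40.8 and 53.9 TPM in mismatch siRNA libraries. The groups overlapped, with 1 high library among the PSENEN siRNA libraries and 1 low library among the mismatch siRNA libraries. Coding coverage was 47.4, 42.1 and 13.5 with the PSENEN siRNA and 33.8, 43.9 and 58.6 with the mismatch siRNA, which moved the second PSENEN siRNA library and the first mismatch siRNA library up. These are the libraries in which the assembly held a long P2RY2 transcript without a reference name, of 15068 bases at 13.04 TPM in PSENEN siRNA library 2 and of 15058 bases at 9.34 TPM in mismatch siRNA library 1. The log2 difference of P2RY2 was -0.69 ± 0.71 (SE) on reference transcripts and -0.54 ± 0.45 (SE) on coding coverage, within the spread of the libraries on both. On reference transcripts it was -1.29 without PSENEN siRNA library 1, -0.35 without PSENEN siRNA library 3, -1.31 without mismatch siRNA library 1 and -0.28 without mismatch siRNA library 3, with -0.43 without PSENEN siRNA library 2 and -0.48 without mismatch siRNA library 2. Without the third PSENEN siRNA library the difference on coding coverage was 0.01, so this library carried it.

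**Figure D3:**
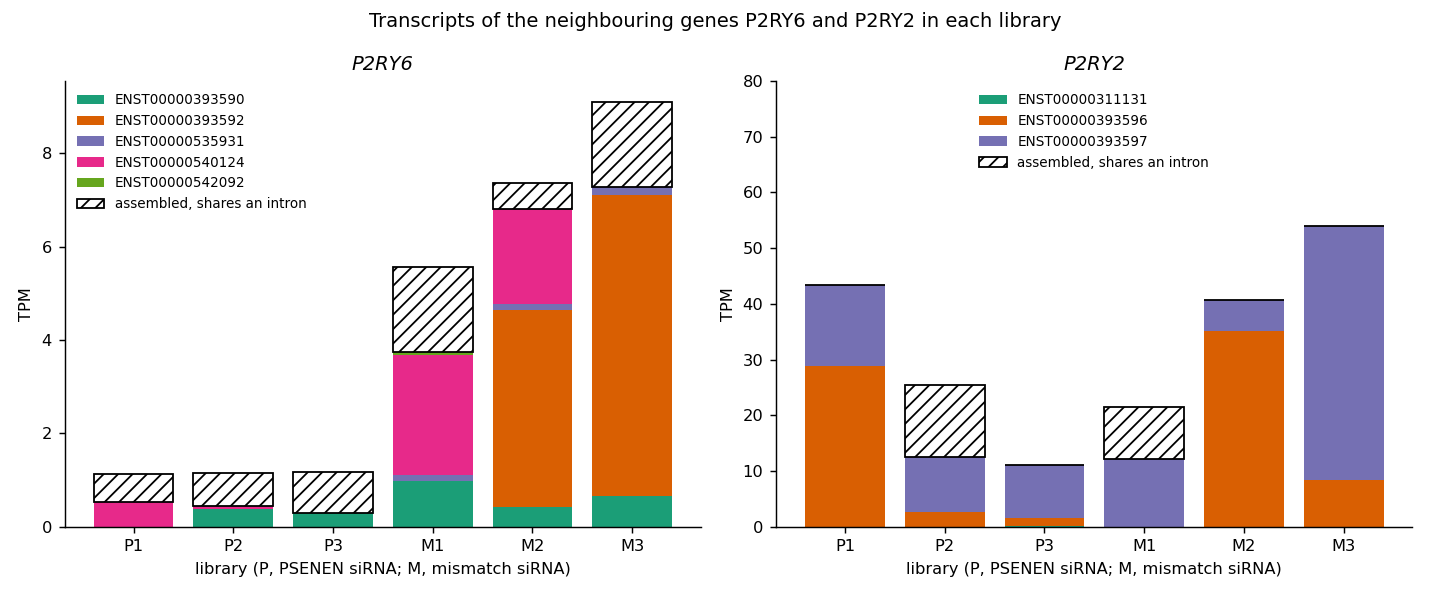
TPM of each listed transcript of P2RY6 (left) and P2RY2 (right), stacked per library, with PSENEN siRNA libraries P1 to P3 before mismatch siRNA libraries M1 to M3; hatched parts are assembled transcripts that share an intron with the gene. P2RY6 stacks reach 1.13 to 1.17 TPM with the PSENEN siRNA and 5.56 to 9.09 TPM with the mismatch siRNA, and P2RY2 stacks of the groups overlap.

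**Figure D4:**
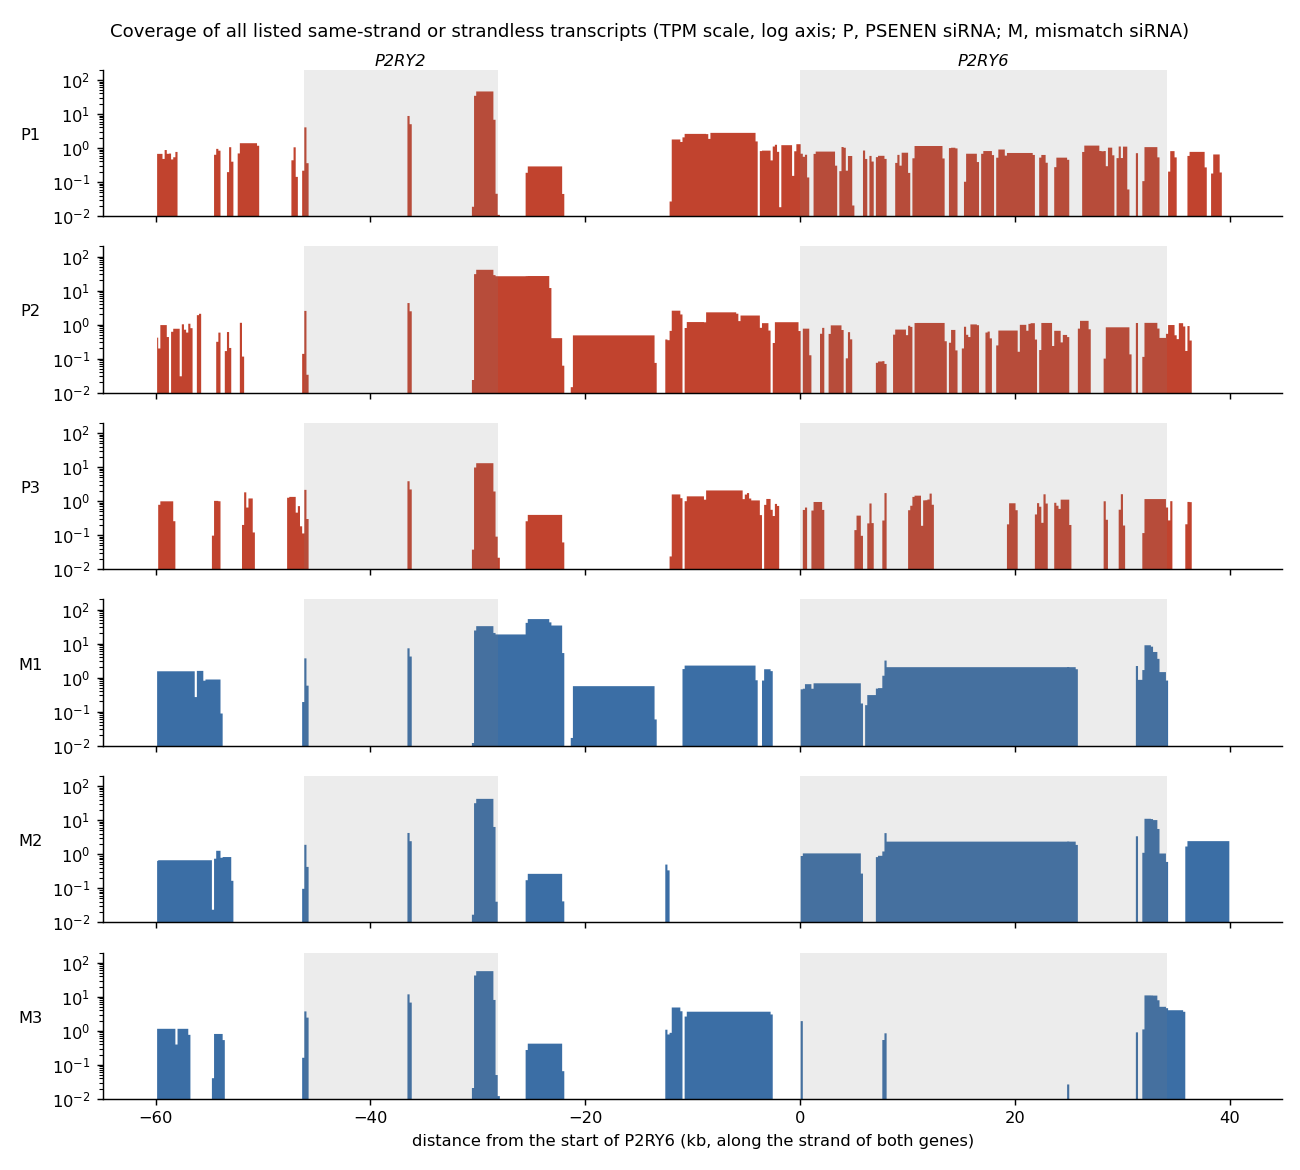
Coverage of all listed same-strand or strandless transcripts in 200-base bins along P2RY2 and P2RY6 (grey spans), against the distance in kb from the start of P2RY6, on a log axis of the TPM scale, with PSENEN siRNA libraries above mismatch siRNA libraries. In P2 and M1 coverage at a level near that of P2RY2's last exon runs on past the gene toward P2RY6, and the block at the end of P2RY6 is lower in the PSENEN siRNA libraries.

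P2RY1, a receptor for ADP, was low in every library. Its single annotated transcript, of 1 exon at chr3:152834693-152841439, had 0.499, 0.518 and 0.589 TPM in PSENEN siRNA libraries and 0.544, 0.284 and 0.582 TPM in mismatch siRNA libraries. The groups overlapped, and the gene stayed under the minimum for the test.

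P2RY11, a receptor for ATP, had no reference transcript in any of the 6 libraries and is reported as not detected. The gene lies at chr19:10111538-10115372 directly after PPAN, with which it shares a read-through locus, PPAN-P2RY11, and 56.1% of its 31-base words are found in PPAN-P2RY11 or EIF3G as well. The read-through transcript was not listed in any PSENEN siRNA library and was at 4.23 and 0.214 TPM in mismatch siRNA libraries 2 and 3. Coverage of P2RY11's own coding bases was 0 in all libraries but mismatch siRNA library 2. There listed transcripts spanned 98.3% of those bases, at a mean coverage of 4.73e-05. PPAN, a ribosome biogenesis gene, was at 19.8, 21.8 and 16.3 TPM in PSENEN siRNA libraries and 24.0, 16.3 and 19.7 TPM in mismatch siRNA libraries, with overlap. How reads shared by these genes were assigned is an estimate of the assembler, so the 0 of P2RY11 is uncertain.

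P2RX4, an ATP-gated channel found in many tissues, was also near the limit of detection. It had 0.630, 0.814 and 0.758 TPM with the PSENEN siRNA and 0.770, 0.863 and 1.59 TPM with the mismatch siRNA, spread over 6 of its 14 annotated transcripts. The groups overlapped, 1 mismatch siRNA library stood above the rest, and P2RX4 was not tested. With assembled transcripts that share an intron added, mismatch siRNA library 1 stood at 1.95 TPM, the other 5 values stayed as they were, and the groups no longer overlapped. On coding coverage they overlapped, at 0.490, 0.880 and 0.569 with the PSENEN siRNA and 1.54, 0.559 and 1.07 with the mismatch siRNA.

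P2RX5, an ATP-gated channel that in skin has been linked to differentiating keratinocytes, was the 1 tested member that was higher in all PSENEN siRNA libraries. It had 4.39, 4.26 and 4.24 TPM in PSENEN siRNA libraries and 2.91, 2.77 and 0.852 TPM in mismatch siRNA libraries. The PSENEN siRNA values lay close together and the mismatch siRNA values were spread, with the third far below the others. The mean was 4.30 ± 0.0806 TPM with the PSENEN siRNA and 2.18 ± 1.15 TPM with the mismatch siRNA (SD, n = 3 each), a log2 difference of 0.81 ± 0.32 (SE). Coding coverage was 3.86, 4.48 and 4.11 with the PSENEN siRNA and 2.83, 2.17 and 0.463 with the mismatch siRNA, again without overlap, with a log2 difference of 0.98 ± 0.34 (SE). Without the third mismatch siRNA library the differences were 0.46 and 0.56. P2RX5 was not called in the limma fit on either measure (adjusted p = 0.360 and 0.165).

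P2RX5 lies at chr17:3672199-3696404 on the minus strand and had 9 of its 11 annotated transcripts listed. ENST00000225328 had 0.110, 2.42 and 2.58 TPM in PSENEN siRNA libraries and 2.20, 0.0442 and 0.00302 TPM in mismatch siRNA libraries, and ENST00000345901 had 2.07 and 1.03 TPM in PSENEN siRNA libraries 1 and 3, against 0.208, 0.583 and 0.00353 TPM in mismatch siRNA libraries. No transcript separated the groups as the gene total did. P2RX5 shares 41.2% of its 31-base words with another annotated gene, mainly the read-through locus P2RX5-TAX1BP3, which was not listed in any library. TAX1BP3, the gene downstream, which encodes a small PDZ domain protein, was at 122.8, 14.7 and 132.3 TPM in PSENEN siRNA libraries and 140.4, 126.5 and 121.4 TPM in mismatch siRNA libraries, so the second PSENEN siRNA library stood apart there and not at P2RX5.

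ADORA2B, the adenosine receptor that raises cyclic AMP at high adenosine levels, was the highest of the 8 genes by mean TPM of reference transcripts in both groups. It had 34.1, 40.0 and 41.9 TPM in PSENEN siRNA libraries and 51.5, 36.2 and 36.5 TPM in mismatch siRNA libraries. The groups overlapped, and the first mismatch siRNA library was highest. The spliced transcript ENST00000304222, which holds the annotated coding sequence, was at 33.6, 39.2 and 41.5 TPM with the PSENEN siRNA and at 38.4, 35.8 and 36.1 TPM with the mismatch siRNA. The excess of mismatch siRNA library 1 came from ENST00000582124, a 1-exon transcript over the end of the gene, which had 13.1 TPM there and 0.387 to 0.778 TPM in the other 5 libraries. The log2 difference of the gene was -0.08 ± 0.17 (SE) on reference transcripts and -0.03 ± 0.17 (SE) on coding coverage, and it took either sign as single libraries were left out. The gene lies at chr17:15944917-15975746 on the plus strand.

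NT5E, the ectonucleotidase, had 7.74, 9.15 and 8.70 TPM in PSENEN siRNA libraries, against 16.4, 11.7 and 9.04 TPM in mismatch siRNA libraries. All PSENEN siRNA libraries were at the low end, but the third mismatch siRNA library lay among them. The mean was 8.53 ± 0.722 TPM with the PSENEN siRNA and 12.4 ± 3.70 TPM with the mismatch siRNA (SD, n = 3 each), a log2 difference of -0.46 ± 0.22 (SE). Without mismatch siRNA library 1 it was -0.25, and -0.32 on coding coverage. Coding coverage was 7.89, 9.21 and 9.19 with the PSENEN siRNA and 16.8, 13.4 and 9.27 with the mismatch siRNA, where the groups just failed to overlap, and the log2 difference was -0.50 ± 0.20 (SE). Neither measure was called in the limma fit (adjusted p = 0.445 and 0.214). The full-length transcript ENST00000257770 of 9 exons held most of the level, with 6.60, 8.07 and 7.77 TPM with the PSENEN siRNA and 14.1, 11.4 and 8.41 TPM with the mismatch siRNA. NT5E lies at chr6:85449584-85495791 on the plus strand and shares none of its 31-base words with another annotated gene.

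Of the 5 tested members, 1 was lower and 1 higher without overlap of the groups on reference transcripts, where 13.7% of all tested genes were lower and 8.21% higher in that way, 21.9% in all. On coding coverage 2 were lower and 1 higher, where 21.1% of genes were lower and 7.5% higher, 28.6% in all. These counts are descriptions, since the members were chosen with the values known. The median difference of all tested genes was -0.04 on reference transcripts and -0.08 on coding coverage, on the log2 scale.

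By level, the order in PSENEN siRNA libraries was ADORA2B, P2RY2, NT5E, P2RX5, P2RX4, P2RY1 and P2RY6, with P2RY11 at 0. In this group ADORA2B and P2RY2 overlapped in range, as did P2RY1 and P2RY6, and each other pair of neighbours in the order was apart. In mismatch siRNA libraries the order was ADORA2B, P2RY2, NT5E, P2RY6, P2RX5, P2RX4 and P2RY1, with P2RY11 at 0. There ADORA2B overlapped P2RY2, P2RY2 overlapped NT5E and P2RX5 overlapped P2RX4. P2RY6 was thus the fourth gene by level with the mismatch siRNA and the last of those detected with the PSENEN siRNA. On coding coverage it was the fifth with the PSENEN siRNA and the fourth with the mismatch siRNA.

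The other annotated genes that start or end within 250 kb of P2RY6 and reached the minimum were FCHSD2, ARHGEF17, RELT, FAM168A and the noncoding AP000763.2. None was called in the limma fit on reference transcripts, where their adjusted p-values were 0.316 to 0.572, and none of the 4 protein-coding ones was called on coding coverage. RELT, which encodes a TNF receptor family member 77.6 kb away, came nearest on coding coverage, with 8.31, 5.57 and 5.56 in PSENEN siRNA libraries and 11.3, 10.6 and 11.2 in mismatch siRNA libraries (log2 difference -0.71 ± 0.16 SE, adjusted p = 0.0620). ARHGEF17, 9.7 kb away, was at 3.14, 3.08 and 2.11 with the PSENEN siRNA and 6.19, 4.58 and 3.59 with the mismatch siRNA on that measure. Both of these were lower without overlap of the groups. FAM168A, 101.9 kb away, was higher without overlap on reference transcripts, at 7.38, 3.98 and 7.39 TPM with the PSENEN siRNA and 3.46, 3.47 and 3.15 TPM with the mismatch siRNA, a log2 difference of 0.69 ± 0.24 (SE). On coding coverage it was at 10.2, 8.17 and 8.004 in PSENEN siRNA libraries against 8.36, 9.02 and 8.31 in mismatch siRNA libraries, with overlap.

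Among 8293 protein-coding genes with a mean of at least 5 TPM, the 5 whose log2(TPM + 1) followed P2RY6 most closely over the 6 libraries were S100A9, OLFM4, OSBPL2, TMEM54 and FAM208A, with Pearson's r of 0.991 to 0.998. S100A9, a calcium-binding alarmin, was at 153.3, 152.5 and 151.3 TPM with the PSENEN siRNA and at 346.0, 491.6 and 488.3 TPM in mismatch siRNA libraries. OLFM4, a secreted glycoprotein, was at 7.39, 6.58 and 4.34 TPM with the PSENEN siRNA and at 30.7, 55.7 and 52.1 TPM with the mismatch siRNA. In both, as in P2RY6, the first mismatch siRNA library was the lowest of its group, an order that the choice by correlation favours. The correlation includes the difference between the groups, so a gene that separates them can rank high, and 363 genes had r over 0.9. On coding coverage the 5 genes were DNAJC10, SAMD9, NR1D2, PC and PDIA4, none of which was among the first 5, so the ranking depended on the measure.

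Around the 8 members, a wider list of 58 genes of nucleotide and adenosine signalling was examined, of which 34 were above 0 in some library and 27 were tested. Of the 27, none was called in the limma fit on reference transcripts, where 0.409% of all genes were. Of the 27, 5 had an unadjusted p under 0.05, against 2031 of all 15647 genes, and 10 differences were positive and 17 negative, with a median of -0.03. On coding coverage 1 gene was called higher and 1 lower, where 0.702% of all genes were called higher and 3.06% lower. On this measure 9 of the 27 had an unadjusted p under 0.05, against 2461 of all 11531 genes, and their median was -0.10. The median-of-ratios scaling turned the balance on reference transcripts to 14 positive and 13 negative.

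The other receptor and surface enzyme genes are named to account for their families, beyond the rule for named genes. The other P2Y receptor genes were almost absent. P2RY4, a receptor for UTP, had 0.0427 to 0.241 TPM in PSENEN siRNA libraries and 0.154 to 0.261 TPM in mismatch siRNA libraries, and P2RY12, P2RY13 and P2RY14 had no reference transcript. Among the P2X receptor genes beside P2RX4 and P2RX5 only P2RX6 was tested, at 1.18 ± 0.133 TPM with the PSENEN siRNA and 1.34 ± 0.715 TPM with the mismatch siRNA, with overlap. Its coding coverage was 1.27, 1.78 and 2.12 in PSENEN siRNA libraries and 3.44, 2.18 and 3.10 in mismatch siRNA libraries, lower without overlap and not called (log2 difference -0.52 ± 0.20 SE). P2RX7, the channel that forms a large pore under prolonged ATP, was listed at 0 in every library. P2RX1, P2RX2 and P2RX3 were at 0 on reference transcripts too. Of the other adenosine receptor genes, ADORA1 and ADORA3 were listed at 0 and ADORA2A did not exceed 0.425 TPM, so that on reference transcripts ADORA2B was the 1 member of its family above 1 TPM.

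Of the cell-surface enzymes, the ATP-hydrolysing ENTPD1 (CD39) was listed at 0, and ENTPD3 was the 1 tested surface member of its family, with 1.47, 0.958 and 1.43 TPM in PSENEN siRNA libraries and 0, 1.37 and 1.53 TPM in mismatch siRNA libraries. ENTPD8, ENPP1, ENPP2, ENPP3, ALPL and CD38 had no reference transcript, and ENTPD2 did not exceed 0.257 TPM. ACPP, an acid phosphatase that also makes adenosine from AMP, was on reference transcripts the most abundant tested gene of this list beside NT5E. It was at 1.97 ± 0.226 TPM with the PSENEN siRNA and 3.11 ± 0.853 TPM with the mismatch siRNA (log2 difference -0.45 ± 0.21 SE). ACPP was lower without overlap of the groups on both measures and was called on neither. ADA, also on this list, was at 0.722, 2.86 and 0 TPM in PSENEN siRNA libraries and 2.45, 2.59 and 3.97 TPM in mismatch siRNA libraries, with overlap. Its log2 difference was -1.07 ± 0.50 (SE) on reference transcripts and -0.63 ± 0.35 (SE) on coding coverage, called on neither. On coding coverage ADA was the most abundant tested gene of this list beside NT5E. The intracellular enzymes of the ENTPD family were higher in level and none was called. The most abundant of them, ENTPD6, was at 43.5 ± 4.47 TPM with the PSENEN siRNA and 40.3 ± 5.38 TPM with the mismatch siRNA.

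The genes of nucleotide release included the 2 called on coding coverage, PANX2 and PANX1, which encode pannexins, and which are named here after their values were seen. PANX1 forms channels through which cells let out ATP. Its coding coverage was 12.9, 11.6 and 15.9 in PSENEN siRNA libraries and 29.1, 27.2 and 23.3 in mismatch siRNA libraries, without overlap, with a log2 difference of -0.94 ± 0.14 (SE; limma adjusted p = 0.0220). On reference transcripts the difference was -1.25 ± 0.35 (SE) and PANX1 was not called (limma adjusted p = 0.229). PANX2 was covered at 4.09, 3.51 and 2.15 in PSENEN siRNA libraries and at 0.506, 0.214 and 0.307 in mismatch siRNA libraries, also without overlap, with a log2 difference of 1.64 ± 0.22 (SE; limma adjusted p = 0.0161). On reference transcripts its difference was 1.78 ± 0.27 (SE), not called (limma adjusted p = 0.0744). PANX2 passed the minimum only through the PSENEN siRNA group. With single libraries left out, the call on coding coverage stayed for PANX1 only without PSENEN siRNA library 3 or mismatch siRNA library 3, at adjusted p-values of 0.0473 to 0.0925 over the 6 omissions. For PANX2 it stayed only without mismatch siRNA library 1, and without any 1 PSENEN siRNA library PANX2 was no longer tested. LRRC8A, a subunit of volume-regulated anion channels and the most abundant gene of this group, was at 51.4 ± 3.06 TPM with the PSENEN siRNA and 51.3 ± 8.02 TPM with the mismatch siRNA.

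Among nucleoside transporters and intracellular adenosine enzymes, AHCY, which splits S-adenosylhomocysteine into adenosine and homocysteine, was most abundant, at 149.3 ± 1.24 TPM with the PSENEN siRNA and 152.8 ± 7.53 TPM with the mismatch siRNA. SLC29A2, a nucleoside transporter gene named after its values were seen, shows how far the measure matters. Its log2 difference was 1.63 ± 0.48 (SE) on reference transcripts and 0.19 ± 0.32 (SE) on coding coverage. In the Gq and calcium relay, through which P2RY6, P2RY2 and P2RY1 act, none of the 6 tested genes was called on either measure. GNA11, which encodes a Gq-class alpha subunit and is named after its values were seen, was higher without overlap on both, at 21.3, 19.0 and 21.6 TPM with the PSENEN siRNA and 4.85, 14.9 and 18.7 TPM with the mismatch siRNA (log2 difference 0.82 ± 0.45 SE, and 0.79 ± 0.21 SE on coding coverage). GNAQ, the gene of another such subunit and also named after its values were seen, was lower without overlap on both, with log2 differences of -0.18 and -0.15. ITPR3, an inositol trisphosphate receptor and the most abundant of them, was at 44.6 ± 2.15 TPM with the PSENEN siRNA and 45.1 ± 3.49 TPM with the mismatch siRNA, a log2 difference of -0.02 ± 0.10 (SE).

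**Figure D5:**
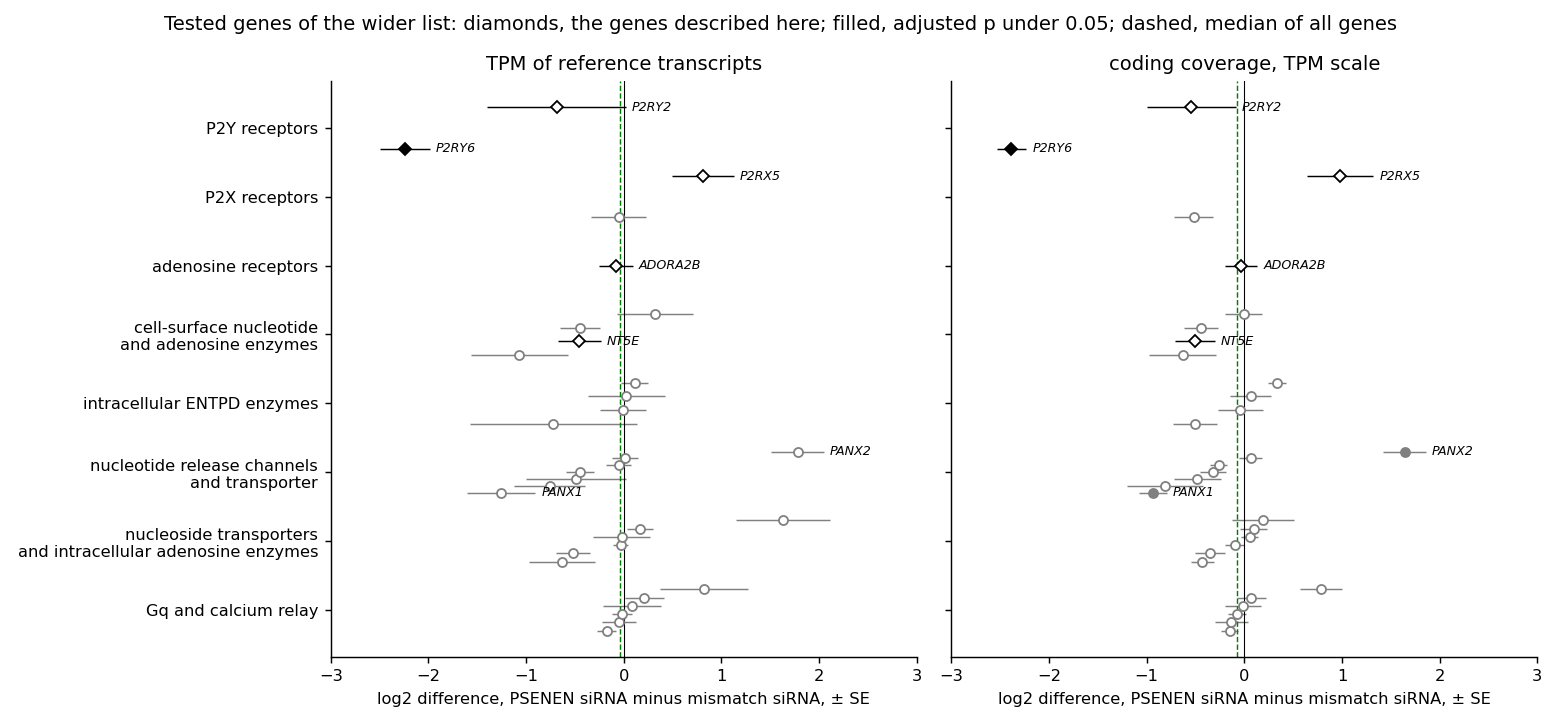
Log2 difference, PSENEN siRNA minus mismatch siRNA, with its SE, for each tested gene of the wider list and the 5 tested members (diamonds), on reference transcripts at the left and on coding coverage at the right; filled marks have an adjusted p under 0.05 and the dashed line is the median of all genes. P2RY6 is the lowest on both measures at -2.24 and -2.39, and PANX1 and PANX2 are filled on coding coverage alone.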

How the data were processed

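The deposited files hold 1 StringTie transcript assembly per library, per the file headers, with TPM, FPKM and coverage per transcript and other attribute text. The StringTie version is not stated. The submitters' processing notes list Bowtie 0.12.2 and mouse builds, while the coordinates are human, so the aligner and build behind these files are not known. Of the reference transcripts, 98.4% lie at their GENCODE 29 (GRCh38) position, and gene positions are taken from it. Reference transcripts made up 66.4% to 68.6% of TPM in each library. Depth in reads is unknown.

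TPM of transcripts with a reference gene name was summed per gene. Genes that reached 1 TPM in 3 or more libraries were fitted on log2(TPM + 1) by limma 3.58.1 (R 4.3.3), with its trend option and group as the only term (4 residual degrees of freedom), and p-values were Benjamini-Hochberg adjusted over all genes, with a threshold of 0.05. The fit called 20 genes higher and 44 lower. With median-of-ratios scaling it called 21 higher and 28 lower. The steps were tested on simulated data. Coding coverage used bedtools 2.31.1 and Python 3.11.15 with pandas 2.3.3 and NumPy 2.4.6.

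The genes, the lists and the 7-base word were chosen with earlier results of these data known. Genes named were the 8 members, PSENEN, read-through loci, up to 3 called genes or else the most abundant tested gene of each list, genes within 250 kb of P2RY6, and the 5 protein-coding genes that followed P2RY6 most closely. Low or absent members of the receptor and surface enzyme families, and ADA, are named beyond this rule, and other names are said to be chosen after values were seen. Exact permutation tests of 3 against 3 libraries allow no p under 0.1 and were not used for calls.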

Additional observations from a re-analysis of the deposited data

How the results depend on the processing

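The difference of P2RY6 was negative under all 21 alternatives that tested it, from -3.48 to -0.99 on the log2 scale. It stayed called under 13, and the value and limma adjusted p (0.0565 to 0.349) where the call was lost were -0.99 with a pseudocount of 5, -2.24 with no filter on low values, -1.39 on FPKM, -2.24 with the replicate number as a block, -2.39 on coding coverage with the replicate block, and -2.29 to -2.18 without each PSENEN siRNA library. The 13 include every setting on coding coverage but the replicate block, and these were added after the data were seen. The other calls kept were with assembled transcripts added, a pseudocount of 0.1, assembled bases, median-of-ratios scaling, quantile normalization and no trend option. The minimum of 5 TPM left P2RY6 untested, as did each missing mismatch siRNA library on reference transcripts. The cause was not tested. Of the 4 other tested members, none was called under any alternative. NT5E was negative and P2RX5 positive under all alternatives run, P2RX5 reached 1.26 on coding coverage without mismatch siRNA library 1, and ADORA2B ran from -0.17 to 0.10.

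The count of genes called, 64, became 28 with a pseudocount of 0.1, 109 on assembled bases, 1 with the replicate block, 434 on coding coverage (81 higher, 353 lower; 155 without mismatch siRNA library 3) and 1 there with the block, and 7 to 16 with single libraries left out (13 to 212 on coding coverage). It was within 1.5 times of 64 under the other 8. The wider list had 2 calls on coding coverage, 0 to 1 there with single libraries left out, and 0 otherwise. Deviations of same-numbered libraries from their group means were nearly uncorrelated over genes (r = -0.0489, 6.51e-05 and -0.0142 on reference transcripts). With 3 libraries per group this cannot show whether same-numbered libraries shared a culture or a batch. Alternatives with coding coverage were added after the data were seen. Low levels limit P2RY1, P2RY11 and P2RX4, for which the files hold too little to compare groups.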
